A study of Homo sapiens with 18 samples.

Results

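The RNA that HEK293 cells made during 30 min of 4-thiouridine labelling was compared with the RNA they made during 15 min. The comparison rests on 6 of the 18 libraries of the series, 3 that the labels put at each time. In it, the spliced RNA of 18 of 79 ribosomal protein genes and of some other short genes took a smaller share of the labelled pool at 30 min, and the spliced RNA of SRSF6, HNRNPL, EIF5, NOP56, SNHG1 and E2F3 took a larger one. The share of RNA that was still unspliced fell for 519 genes and rose for 34. These numbers come from a fit that also used the other labelled libraries. The 6 libraries alone gave 0 genes in spliced RNA, and 1 fall and 1 rise in the unspliced share. After another scaling of the libraries, none of SRSF6, HNRNPL, EIF5, NOP56, SNHG1 and E2F3 passed the test.

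HEK293 is an established line derived from human embryonic kidney. All cells grew in high-glucose DMEM with serum and antibiotics, and all labelled groups received 500 µM 4-thiouridine, so the groups compared here differ by labelling time. RNA was taken up in TRIzol, and the labelled part was biotinylated and captured on streptavidin. The other libraries are 9 labelled ones at 7.5, 45 and 60 min, which lend their spread to the tests below, and 3 of total RNA, not used here. The labels give each labelled group replicates A, B and C, and values below are listed in that order. They do not say whether the letters stand for separate cultures, so the p-values cover only how far these samples vary, and that variation may be technical.

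4-thiouridine is a uridine analogue that enters RNA as it is transcribed, and its sulphur takes the biotin that allows capture. A longer pulse therefore collects RNA that is on average older and further along its path from transcription through splicing to export and decay. Introns are removed by the spliceosome, mostly while the polymerase is still on the gene. SR proteins and their CLK kinases promote the use of splice sites, and HNRNP proteins bind nascent RNA and often oppose it. Ribosomal protein mRNAs are short, heavily transcribed and long-lived, and most of them start with a pyrimidine tract.

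Values are in TPM, a share of each library's transcripts that is corrected for their length. The deposited table splits each gene into a mature value, the sum of its spliced isoforms, and a primary value, an added isoform that spans the whole locus. Mature and primary values of a library add up to 1000000, so a fall of some genes raises others, and levels describe shares of the captured pool and not molecules per cell. The table holds no read counts, so the depth of each library is unknown. In bulk RNA of this kind, fewer cells of a type and less RNA per cell cannot be told apart.

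Between 18606 and 19057 entries had mature RNA above 0 in the 15 min libraries, and between 19399 and 20220 in the 30 min libraries. Of 9 genes typical of HEK293 cells, 8 had a mean of at least 1 TPM, led by VIM, the intermediate filament vimentin, at 228 to 319.96 TPM over the 6 libraries. NEFM, a neurofilament chain, was the gene below that mean, at 0 to 0.77 TPM. Of 16 markers of blood, endothelial, liver, muscle, fat and connective tissue cells, 8 were listed at 0 in all 6 libraries and 4 had a mean of at least 1 TPM. Their summed mature level was 16.8 to 23.4 TPM at 15 min and 16.3 to 25.4 TPM at 30 min, and PPARG, an adipocyte regulator, made up 7.39 to 14.6 TPM of it.

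The comparison of mature RNA asks which spliced transcripts gain or lose weight in the labelled pool as the pulse grows longer. Of 16748 genes with a mean of at least 1 TPM, 95 (0.567%) were higher and 36 (0.215%) were lower at 30 min. The test was limma on log2(TPM + 1) over the 15 labelled libraries, with Benjamini-Hochberg adjusted p under 0.05. Differences are on that log2 scale, which understates the change of low genes. The 6 values of each of the 131 genes did not overlap between the times. The median difference of all genes was 0.17, so lists are also given relative to that median. A limma fit on the 6 libraries alone gave 0 calls, although 1904 genes had an unadjusted p under 0.05.

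How many genes were called, and in which direction, depended on the scaling of the libraries. Median-ratio scaling, which brought the median difference to -0.01, called 14 genes higher and 44 lower. Of the 131 genes it kept 14 higher and 32 lower. Quantile normalization called 52 higher and 62 lower, and mature TPM rescaled without the primary values called 41 higher and 37 lower. Leaving out 1 library at 15 min left 47 higher and 19 lower calls without replicate A, 67 and 18 without B, and 46 and 22 without C. Leaving out 1 library at 30 min left 20 higher and 16 lower calls without replicate A, 12 and 5 without B, and 2 and 0 without C.

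Genes of the cytosolic ribosome had the lowest median difference of the fixed lists. Of 79 ribosomal protein genes tested, 18 fell and 0 rose, beside the 0.215% of all genes that fell. In 55 of them the 3 values at 30 min all lay below the 3 at 15 min, as in 4.47% of all genes tested. The median difference of the list was -0.72, or -0.89 relative to the median of all genes. Summed over the list, ribosomal protein mRNA was 40910.1 to 45752 TPM at 15 min and 25719.9 to 28984 TPM at 30 min, ranges that do not overlap. The 3 scalings called 19, 23 and 24 members lower. The number fell to 1 without replicate B at 30 min and to 0 without replicate C, and was 4, 7 and 10 without replicates A, B and C at 15 min and 7 without replicate A at 30 min.

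RPS15, a protein of the small subunit, had the largest fall among them, with 1979.7, 1859 and 1165 TPM at 15 min and 798, 620.3 and 476 TPM at 30 min (log2 difference -1.39, SE 0.22, limma adjusted p = 0.0137). RPL35, of the large subunit, had 646, 651 and 599.9 TPM at 15 min and 335, 254 and 211 TPM at 30 min (log2 difference -1.27, SE 0.20, limma adjusted p = 0.0122). RPS19, the small-subunit protein mutated in Diamond-Blackfan anaemia, had 686, 674 and 585 TPM at 15 min and 300, 276 and 255 TPM at 30 min (log2 difference -1.22, SE 0.17, limma adjusted p = 0.0109). In all 3 genes the lowest library at 15 min stayed well above the highest at 30 min. These 3 genes, on chromosomes 19, 9 and 19, are 2137, 4102 and 13009 bp long with 5, 5 and 6 exons.

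Start sites are shown for short genes whose calls are described here because ribosomal protein mRNAs are known for a pyrimidine tract at the start. Windows run from 20 bases before to 10 bases after the start that RefSeq lists (GRCh38.p14), 5′ to 3′, and capitals mark a run of at least 5 C or T bases that begins with C and has its first base within 10 bases of the start. RPLP2 is added because its unspliced share rose.
RPS15 (chr19:1438376-1438405, plus strand): ataactgcgcaggcgcggaccaaagcgatC
RPS19 (chr19:41860235-41860264, plus strand): gcccgggaaaccccgtcgttCCCTTTCCCC
RPL35 (chr9:124861948-124861977, minus strand): aggtcagccccgcctaCTTCCTCTTTCCCT
RPLP2 (chr11:809947-809976, plus strand): gcctcttgcgtcggcgCCTTCCTTTTCCTC
TMSB10 (chr2:84905636-84905665, plus strand): ggggcgggcgccgCTCTTTTgtttcttgct
COX6B1 (chr19:35648303-35648332, plus strand): tctctcagcttccggctggtagtagttccg
COX5B (chr2:97646042-97646071, plus strand): ctctgcagcttgttcccggaagttttgctg
COX6A1 (chr12:120438093-120438122, plus strand): tccgcttccggcgctgcggcagtccagatc
UBL5 (chr19:9827898-9827927, plus strand): cgcttccggttcctagcgttaactgcgacc

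RPS15 has only the first base of its run inside the window, at its last position, while the runs of RPS19, RPL35 and RPLP2 begin at or before the start. Such a run, searched on the gene's own strand, was present in 54 of 63 tested ribosomal protein genes with a RefSeq start (85.7%), against 3314 of all 10670 tested genes with one (31.1%). Among the 16 ribosomal protein genes that fell and had a start, 13 held it (81.3%). Among the 11 other genes that fell and had a start, TMSB10 alone held it (9.09%). Among 68 genes that rose, 25 held it (36.8%). The match describes letters in a window and is no evidence of a factor's binding or of the start used in these cells.

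Subunits of the mitochondrial respiratory chain and ATP synthase encoded in the nucleus showed a similar difference, with fewer calls. Of 75 tested, 3 fell and 0 rose, beside the 0.215% of all genes that fell. The median difference was -0.57, or -0.74 relative to all genes. Their summed mature level was 5034 to 5541 TPM at 15 min and 3628 to 3746 TPM at 30 min. COX6B1, a subunit of cytochrome c oxidase, had 256, 244 and 208 TPM at 15 min and 95.3, 87.7 and 59.5 TPM at 30 min (log2 difference -1.56, SE 0.23, limma adjusted p = 0.0109). COX5B, another subunit of that enzyme, had 42.8, 54.8 and 34.04 TPM at 15 min and 14.9, 18.8 and 11.96 TPM at 30 min (log2 difference -1.47, SE 0.27, limma adjusted p = 0.0251). COX6A1, the third, had 232, 234 and 186 TPM at 15 min and 132, 96.6 and 75.3 TPM at 30 min (log2 difference -1.12, SE 0.24, limma adjusted p = 0.0456). The 13 mRNAs encoded by mitochondrial DNA, which have no introns, had no call and a median difference of 0.17.

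Other genes that fell were likewise short. TMSB10, a thymosin that binds actin monomers, had 96.7, 124 and 149 TPM at 15 min and 52.9, 38.2 and 44.4 TPM at 30 min (log2 difference -1.42, SE 0.23, limma adjusted p = 0.0142). UBL5, a ubiquitin-like protein, had 64.3, 87.7 and 88.7 TPM at 15 min and 44.4, 19.2 and 23.5 TPM at 30 min (log2 difference -1.51, SE 0.28, limma adjusted p = 0.0251). GPX4, the peroxidase that clears lipid peroxides, had 161, 145 and 84.9 TPM at 15 min and 72.9, 52.02 and 44.3 TPM at 30 min (log2 difference -1.17, SE 0.24, limma adjusted p = 0.0375). In each of the 3 the groups were apart, although replicate C of GPX4 at 15 min came near replicate A at 30 min. CENPX, a protein of the kinetochore and of DNA repair, had 75.2, 43.2 and 40.2 TPM at 15 min and 20.5, 20.3 and 18.5 TPM at 30 min (log2 difference -1.32, SE 0.28, limma adjusted p = 0.0456). Of 41 core spliceosome genes 1 fell and 0 rose, beside the 0.215% of all genes that fell, and 28 of the 41 had a difference above 0. The 1 called was SNRPD2, a ring protein of the spliceosomal snRNPs, with 145, 122 and 92.8 TPM at 15 min and 53.98, 70.2 and 58.5 TPM at 30 min (log2 difference -0.95, SE 0.20, limma adjusted p = 0.0392). RPP21, a subunit of RNase P, also fell (-1.57), and its entry has copies with identical values, so the level of the gene itself is uncertain. Among all 131 called entries, 5 shared their values with another entry.

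**Figure D1:**
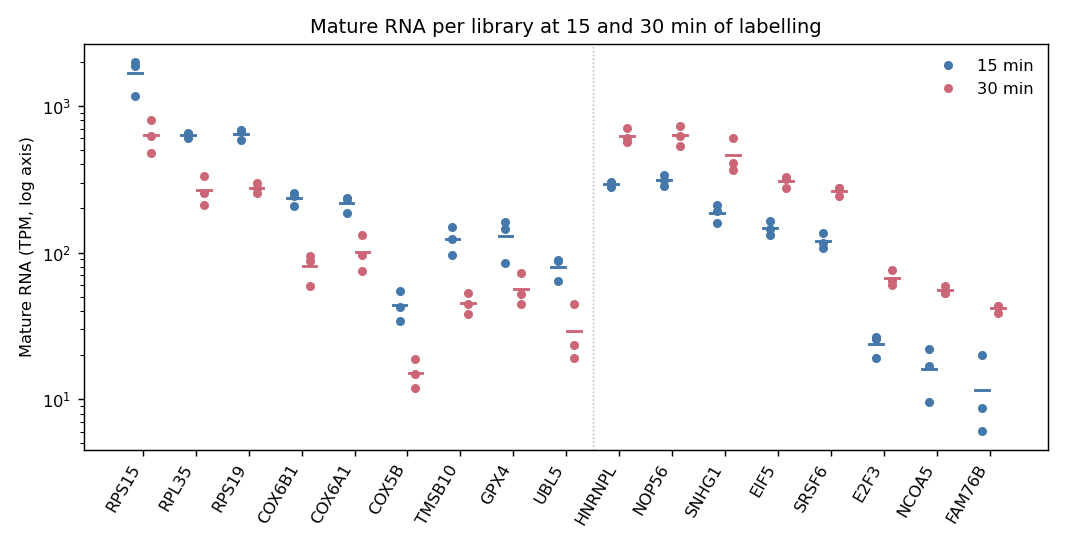
Mature RNA of 17 named genes in each of the 6 libraries (y axis, TPM, log scale), with the 15 min and 30 min libraries as separate points for each gene on the x axis. The 9 genes on the left, among them RPS15 and COX6B1, have all 30 min points below all 15 min points, and the 8 on the right, among them HNRNPL and SRSF6, have them above.

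Regulators of splicing were among the genes that rose. Of 20 SR proteins, CLK kinases and partners, 2 rose and 0 fell, beside the 0.567% of all genes that rose. Their median difference was 0.49. SRSF6, an SR protein, had 107, 135 and 116 TPM at 15 min and 274, 242 and 277 TPM at 30 min (log2 difference 1.15, SE 0.17, limma adjusted p = 0.0109). CLK2, a kinase that phosphorylates SR proteins, had 27.5, 27.1 and 33.3 TPM at 15 min and 72.6, 60.1 and 65.2 TPM at 30 min (log2 difference 1.15, SE 0.25, limma adjusted p = 0.04902). Of 24 HNRNP genes 1 rose and 0 fell, beside the same 0.567%, with a median of 0.35. The 1 called was HNRNPL, which binds CA-rich RNA, with 301, 299 and 279.8 TPM at 15 min and 711, 569 and 605 TPM at 30 min (log2 difference 1.09, SE 0.18, limma adjusted p = 0.0142). In all 3 genes every 30 min library stood above every 15 min library. Under median-ratio scaling 0 members of these lists were called.

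Host genes of small nucleolar RNAs, which carry these guides of rRNA modification in their introns, had 3 rises and 0 falls among 24. Their median was 0.47, and 0.567% of all genes rose. SNHG1, a long non-coding host, had 194, 211 and 158 TPM at 15 min and 601, 368 and 409.8 TPM at 30 min (log2 difference 1.27, SE 0.21, limma adjusted p = 0.0142). NOP56, a protein of the C/D box snoRNPs and itself a host, had 338, 312 and 284 TPM at 15 min and 727, 532 and 626 TPM at 30 min (log2 difference 1.00, SE 0.17, limma adjusted p = 0.0188). SNHG16, another non-coding host, had 124, 149 and 169 TPM at 15 min and 221, 257 and 256 TPM at 30 min (log2 difference 0.74, SE 0.16, limma adjusted p = 0.0456). Replicate A of SNHG1 at 30 min stood above B and C of the same time, and all 3 stood above the 15 min libraries.

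Translation factors, unlike the ribosome's own proteins, had 2 rises and 0 falls among 44. Their median was 0.25, and 0.567% of all genes rose. EIF5, which triggers GTP hydrolysis at the start codon, had 131, 145 and 164 TPM at 15 min and 317, 328 and 275 TPM at 30 min (log2 difference 1.06, SE 0.16, limma adjusted p = 0.0109). PABPC4, a cytoplasmic poly(A)-binding protein, had 102, 138 and 148 TPM at 15 min and 235, 239 and 248 TPM at 30 min (log2 difference 0.90, SE 0.17, limma adjusted p = 0.026). The difference between these 2 lists was not tested, and under median-ratio scaling 0 translation factors and 0 snoRNA hosts were called.

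Among 27 E2F factors and cyclins, many of which act in the cell cycle, 1 rose and 0 fell, beside the 0.567% of all genes that rose. Their median was 0.47. E2F3, an activator of S phase genes, had 25.6, 26.4 and 19.04 TPM at 15 min and 76.4, 59.7 and 64.2 TPM at 30 min (log2 difference 1.46, SE 0.22, limma adjusted p = 0.0109). Of 401 zinc finger genes with ZNF symbols, which are mostly repressors of transcription, 5 rose and 0 fell, beside the same 0.567%. Their median was 0.38. ZNF615 had 2.36, 3.7 and 7.58 TPM at 15 min and 16.8, 19.1 and 15.3 TPM at 30 min (log2 difference 1.81, SE 0.34, limma adjusted p = 0.0259), ZNF419 had a difference of 1.66, and ZNF395 of 1.38. Under median-ratio scaling 0 genes of the E2F list and 2 of the ZNF list were called.

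Among the largest rises were those of NCOA5, FAM76B and GDNF. Each of their 15 min values lay under 27.4 TPM, the median 15 min level of genes that rose. NCOA5, a coregulator of nuclear receptors, had 22.1, 16.8 and 9.53 TPM at 15 min and 59.4, 53.4 and 52.9 TPM at 30 min (log2 difference 1.78, SE 0.28, limma adjusted p = 0.0122). FAM76B had 6.07, 20.2 and 8.73 TPM at 15 min and 38.8, 43.3 and 43.5 TPM at 30 min (log2 difference 1.92, SE 0.37, limma adjusted p = 0.0298). GDNF, a neurotrophic factor of the developing kidney and nervous system, had 1.39, 1.72 and 4.01 TPM at 15 min and 16.2, 11.8 and 9.13 TPM at 30 min (log2 difference 2.03, SE 0.41, limma adjusted p = 0.0362). Replicate B of FAM76B at 15 min was the highest of its time and still lay under the 30 min libraries. PLD6, a phospholipase of the mitochondrial surface, DNAJB9, a co-chaperone of the endoplasmic reticulum, NUAK1, a kinase related to AMPK, and the non-coding EMSLR rose by 1.80, 1.74, 1.63 and 1.59. AC026271.3, annotated as lying inside another gene on the same strand, was listed at 0.66, 0 and 0 TPM at 15 min and 15.3, 8.14 and 8.44 TPM at 30 min, and reads of its host cannot be told apart from its own.

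Other fixed groups had no call in mature RNA, and their medians are descriptions. The median was 0.42 for 37 immediate early genes, 0.56 for 19 genes of the ATF4 stress response, 0.38 for 19 p53 targets, 0.42 for 12 heat shock chaperones, 0.39 for 24 mitotic genes and 0.29 for 23 MCM helicase and origin genes. It was 0.23 for 50 RNA decay factors, 0.52 for 10 ID and HES regulators and 0.28 for 23 histone genes. It was -0.03 for 31 proteasome subunits, -0.04 for 17 glycolysis genes and -0.06 for 10 nuclear lncRNAs. Under median-ratio scaling the positive medians of these lists shrank but stayed above 0, from 0.03 for the decay factors to 0.37 for the ATF4 genes. The core spliceosome list, at 0.10, and the mitochondrial mRNAs turned to -0.10 and -0.04 there.

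MYC, the growth regulator whose mRNA is short-lived, had 409, 313 and 275 TPM at 15 min and 707, 395 and 328 TPM at 30 min (log2 difference 0.46, SE 0.32, limma adjusted p = 0.612). JUN, a subunit of AP-1 from a gene without introns, had 383, 404 and 353 TPM at 15 min and 499, 397 and 284 TPM at 30 min (log2 difference 0.01, SE 0.26, limma adjusted p = 0.9902). The values of both overlapped between the times, and the sign for JUN turned in 5 of the alternatives tried. GAPDH, of glycolysis, had 1132, 961 and 686 TPM at 15 min and 874, 747 and 626 TPM at 30 min (log2 difference -0.29, SE 0.23, limma adjusted p = 0.665), and ACTB, cytoplasmic actin, 1059, 764 and 599.7 TPM at 15 min and 853, 632 and 552 TPM at 30 min (log2 difference -0.23, SE 0.24, limma adjusted p = 0.759). MALAT1, a nuclear lncRNA of speckles, had 171, 500.4 and 445 TPM at 15 min and 221, 719.9 and 762 TPM at 30 min (log2 difference 0.55, SE 0.61, limma adjusted p = 0.776), with a replicate A far under B and C at both times. NEAT1, the long non-coding RNA around which paraspeckles form, had 132, 78.2 and 118 TPM at 15 min and 130, 162 and 132 TPM at 30 min (log2 difference 0.39, SE 0.28, limma adjusted p = 0.619). The 4 genes were not called, and in each the groups overlapped.

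**Figure D2:**
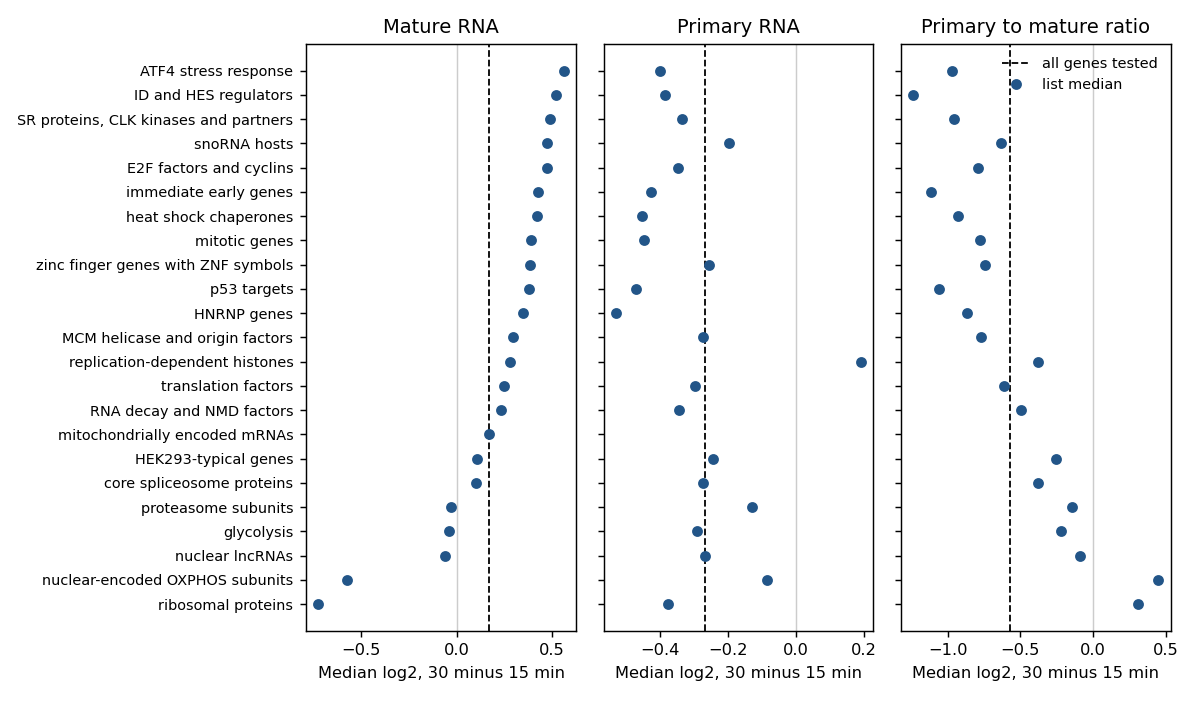
Median log2 difference, 30 min minus 15 min, of each gene list (y axis) for mature RNA, primary RNA and the primary to mature ratio (x axis). Ribosomal proteins and nuclear-encoded OXPHOS subunits stand at -0.72 and -0.57 in mature RNA and at 0.31 and 0.45 in the ratio, where the lists of SR proteins, HNRNP genes and immediate early genes stand at -0.96, -0.87 and -1.11.

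The genes that moved in mature RNA differed in size and in level. The median locus length was 3368 bp for genes that fell, 21652 bp for genes that rose and 27014 bp for all tested. The median length of the annotated transcript was 837 nt for genes that fell and 3794 nt for genes that rose. Genes that fell had a median mean level of 317 TPM at 15 min, against 27.4 TPM for genes that rose and 13.5 TPM for all. Among transcripts with a sequence in the annotation, the median number of uridines, the sites where label can enter, was 172 in genes that fell, 1044 in genes that rose and 868 in all tested. Its part in the differences was not tested. The authors' deposited score of polysome against cytosol RNA, from other libraries than these, lay in the highest of 4 equal classes for all 29 genes that fell and had a score. Other deposited scores set these genes apart as well. All 29 lay in the lowest class of the degradation score, and 28 in the highest class of the score of cytosol against nuclear RNA.

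The comparison of primary RNA asks how the unspliced, mostly nascent, part of the pool differed. Most loci had less of it at 30 min, with a median difference of -0.27 and 78.6% of 14893 genes below 0, but few loci passed the test singly. Of the 14893, 2 were higher (0.0134%) and 9 were lower (0.0604%) by limma at adjusted p under 0.05. In primary RNA same-letter libraries deviated together for A and C, and less so for B (correlation 0.127). A second fit, with the replicate letter as a block, called 86 genes higher (0.577%) and 2292 lower (15.4%). Median-ratio scaling called 7 higher and 8 lower with a median of 0.02, quantile normalization 23 and 19, and rescaled primary TPM 6 and 5, since each of these scalings sets the libraries nearly level. Without replicates A, B and C at 15 min, 3, 3 and 3 genes were higher and 9, 6 and 5 lower, and without replicates A, B and C at 30 min, 1, 1 and 1 were higher and 5, 1 and 2 lower.

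TRIB1, a pseudokinase that steers proteins to degradation, had the clearest fall among well-measured loci, with 131, 126 and 142 TPM at 15 min and 55.6, 33.3 and 39.95 TPM at 30 min of primary RNA (log2 difference -1.63, SE 0.22, limma adjusted p = 0.01096). ADAMTS1, a secreted protease, had 224, 241 and 253 TPM at 15 min and 139, 98.96 and 105 TPM at 30 min (log2 difference -1.07, SE 0.17, limma adjusted p = 0.03401). Neither gene's groups overlapped, and both also fell with the block, each at a limma adjusted p of 0.00718. NUDT3, a hydrolase of inositol pyrophosphates, had 5.6, 9.71 and 19.6 TPM at 15 min and 0.18, 0.58 and 1.89 TPM at 30 min (log2 difference -2.69, SE 0.36, limma adjusted p = 0.01096).

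HOXB6, a homeobox gene, and PUF60, a splicing factor, were the 2 called higher. HOXB6 was listed at 0, 0 and 0.90 TPM at 15 min and 6.21, 18.7 and 18.6 TPM at 30 min. PUF60 had 13.6, 9.39 and 9.09 TPM in the 30 min libraries, while each of its 15 min values was listed at 0. A primary value of 0 beside a well-measured mature one, such as PUF60 at 21.8, 19.5 and 16.1 TPM of mature RNA at 15 min, can be a failed split between isoforms, so no fold is given. AC239799.1, called lower, went from 9.74, 11.3 and 17.9 TPM to 0.19, 0 and 0 TPM.

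MYC, PMAIP1 and ID4 had lower primary RNA that was called with the block and not without it. MYC had 109, 74.7 and 78.5 TPM at 15 min and 49.3, 27.96 and 31.3 TPM at 30 min (log2 difference -1.27, SE 0.26, limma adjusted p = 0.124; adjusted p = 0.0203 with the block). PMAIP1, the p53 target NOXA, had 296, 358 and 319 TPM at 15 min and 209, 145 and 166 TPM at 30 min (log2 difference -0.92, SE 0.16, limma adjusted p = 0.05801; adjusted p = 0.0203 with the block). ID4, an inhibitor of bHLH factors, had 134, 80.6 and 85.9 TPM at 15 min and 79.8, 43.8 and 42.1 TPM at 30 min (log2 difference -0.87, SE 0.35, limma adjusted p = 0.45; adjusted p = 0.0246 with the block). The 3 values of MYC and of PMAIP1 at 30 min lay below the 3 at 15 min, and those of ID4 too, by less than 1 TPM.

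Genes of RNA handling and protein folding were also called with the block and not without it. HNRNPA1, an abundant regulator of splice site choice, had 321, 359 and 353 TPM at 15 min and 289, 194 and 228 TPM at 30 min (log2 difference -0.55, SE 0.18, limma adjusted p = 0.4103; adjusted p = 0.0359 with the block). HSPA8, the constitutive HSP70 chaperone, had 105, 136 and 127 TPM at 15 min and 97.4, 60.7 and 85.5 TPM at 30 min (log2 difference -0.61, SE 0.22, limma adjusted p = 0.4404; adjusted p = 0.0391 with the block). EIF4A2, an RNA helicase of translation initiation, had 238, 238 and 241 TPM at 15 min and 193, 121 and 139 TPM at 30 min (log2 difference -0.69, SE 0.24, limma adjusted p = 0.437; adjusted p = 0.0256 with the block). With the block, 10 of 21 HNRNP genes, 10 of 27 immediate early genes, 7 of 18 p53 targets, 8 of 24 mitotic genes, 15 of 70 ribosomal protein genes and 6 of 70 OXPHOS genes were lower, beside the 15.4% of all genes, and without it none of these lists had a call. Under median-ratio scaling the primary medians of the HNRNP and immediate early lists were -0.19 and -0.15, that of the OXPHOS list turned to 0.20, and 1 HNRNP gene was called. E2F3, whose mature RNA rose, had 61.7, 77.2 and 125 TPM at 15 min and 48.2, 62.1 and 82.9 TPM at 30 min of primary RNA (log2 difference -0.42, SE 0.48, limma adjusted p = 0.665; adjusted p = 0.285 with the block).

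The difference in primary RNA was graded by the length of the locus. The median difference was -0.01 for 1586 genes under 5 kb, -0.06 for 3739 of 5 to 20 kb, -0.25 for 3687 of 20 to 50 kb, -0.42 for 2372 of 50 to 100 kb, and -0.52 both for 2074 of 100 to 300 kb and for 471 of 300 kb or more. No gene of 300 kb or more lay above 0, against 49.1% of those under 5 kb. In mature RNA the medians had another shape, at -0.02 under 5 kb, 0.21, 0.25, 0.24 and 0.16 in the next 4 classes and -0.07 at 300 kb or more. CDH2, the adhesion protein N-cadherin from a locus of 226 kb, had 17.9, 28.2 and 35.6 TPM at 15 min and 12.1, 14.8 and 14.03 TPM at 30 min of primary RNA (log2 difference -0.90, SE 0.37, limma adjusted p = 0.454; adjusted p = 0.0292 with the block).

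**Figure D3:**
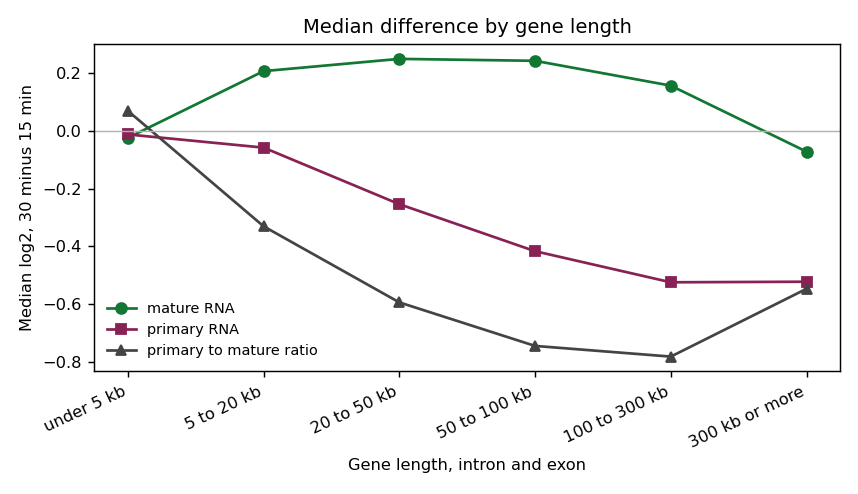
Median log2 difference, 30 min minus 15 min, by locus length in 6 classes (x axis) for mature RNA, primary RNA and their ratio (y axis, log2). The primary line falls from -0.01 in the shortest class to -0.52 in the longest, and the ratio line from 0.07 to -0.78 at 100 to 300 kb and -0.55 beyond.

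The ratio of primary to mature RNA within a gene asks how much of its labelled RNA was still unspliced, and it is free of the scale shared by a library. The unspliced share, primary over primary plus mature TPM, had a median over genes of 34.0%, 35.8% and 40.6% in the 15 min libraries and 28.8%, 25.9% and 30.6% in the 30 min libraries. The means were 36.8% ± 3.41 and 28.4% ± 2.40 (SD, n = 3 each), and the groups did not overlap. The difference of -8.35 percentage points had a two-sided exact permutation p of 0.1, the smallest that 3 against 3 allows. Primary RNA as a share of all TPM was 21.7% ± 3.62 and 17.4% ± 1.69 (SD, n = 3 each), and these groups overlapped (exact permutation p = 0.2).

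Gene by gene, 519 of 13826 ratios fell (3.75%) and 34 rose (0.246%), by limma on the log2 ratio with 0.1 TPM added to each value. The median log2 difference was -0.57, 78.3% of genes lay below 0, and 4635 (33.5%) had 30 min values all below their 15 min values. A difference in a ratio shows unequal change of its parts, and its mature values are those tested above. Adding 1 TPM in place of 0.1 gave 59 rises and 1095 falls, and the 6 libraries alone gave 1 and 1. Without replicates A, B and C at 15 min the falls numbered 28, 240 and 19 and the rises 3, 16 and 7, and without replicates A, B and C at 30 min 136, 1 and 12 falls and 7, 0 and 0 rises were left.

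Immediate early genes, which are transcribed within minutes of a signal and give unstable mRNAs, had 5 falls and 0 rises among 31. Their median was -1.11, and 3.75% of all ratios fell. The unspliced share of MYC was 20.99%, 19.3% and 22.2% at 15 min and 6.52%, 6.61% and 8.72% at 30 min (log2 difference -1.75, SE 0.28, limma adjusted p = 0.0159). That of ZFP36L2, a protein that binds AU-rich elements, was 55.6%, 54.5% and 44.97% at 15 min and 27.2%, 25.6% and 9.24% at 30 min (log2 difference -2.17, SE 0.45, limma adjusted p = 0.0325). That of DUSP1, a phosphatase of MAP kinases, was 36.7%, 41.6% and 35.5% at 15 min and 16.1%, 16.6% and 20.5% at 30 min (log2 difference -1.51, SE 0.33, limma adjusted p = 0.0372). All 3 genes had about the same share in the replicates of a time, apart from the low replicate C of ZFP36L2 at 30 min.

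Of 27 E2F factors and cyclins, 4 fell and 0 rose, beside the 3.75% of all ratios that fell, with a median of -0.79. The share of CCNG1, cyclin G1, was 34.8%, 35.5% and 41.6% at 15 min and 19.3%, 15.8% and 17.3% at 30 min (log2 difference -1.49, SE 0.24, limma adjusted p = 0.0154). That of CCNE1, the cyclin of S phase entry, was 53.6%, 40.7% and 57.8% at 15 min and 29.03%, 26.6% and 32.3% at 30 min (log2 difference -1.31, SE 0.33, limma adjusted p = 0.0475). Of 24 mitotic genes 2 fell, beside the same 3.75%, with a median of -0.78. They were TTK, a kinase of the spindle checkpoint, with 50.6%, 46.4% and 48% at 15 min and 31.2%, 19.4% and 19.9% at 30 min (log2 difference -1.63, SE 0.28, limma adjusted p = 0.0185), and MKI67, the proliferation marker, with a difference of -1.19. E2F3 itself had a share of 70.7%, 74.5% and 86.8% at 15 min and 38.7%, 50.99% and 56.3% at 30 min and did not pass (log2 difference -1.92, SE 0.72, limma adjusted p = 0.127).

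Among SR proteins, CLK kinases and partners, 6 of 19 ratios fell and 0 rose, beside the 3.75% of all ratios that fell. The median share of the list went from 33.8% to 19.4%. SRSF6 had a share of 57.1%, 55.8% and 58.6% at 15 min and 36.8%, 35.5% and 37.8% at 30 min (log2 difference -1.20, SE 0.26, limma adjusted p = 0.0361). Its primary RNA was almost level, at 142, 171 and 164 TPM at 15 min and 159.8, 134 and 168 TPM at 30 min, so the ratio moved with the mature RNA. CLK4, a kinase of SR proteins, had 34.99%, 35.3% and 34.4% at 15 min and 20.9%, 18.1% and 19.2% at 30 min (log2 difference -1.15, SE 0.27, limma adjusted p = 0.0403). Of 21 HNRNP genes 7 fell and 0 rose, beside the same 3.75%, with a median of -0.87. HNRNPH2, a protein that binds runs of G, had 44.98%, 38.9% and 52.8% at 15 min and 19.3%, 14.6% and 14.5% at 30 min (log2 difference -2.11, SE 0.33, limma adjusted p = 0.0154), and HNRNPDL had 53.9%, 44.01% and 47.6% at 15 min and 29.1%, 22.7% and 21.4% at 30 min (log2 difference -1.56, SE 0.29, limma adjusted p = 0.0237).

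The lists of stress responses differed in how many members passed the test. Of 18 p53 targets 1 fell, a share near the 3.75% of all ratios, with a median of -1.06, and it was PMAIP1, with 71.5%, 60.4% and 57.9% at 15 min and 36.8%, 29.8% and 28.1% at 30 min (log2 difference -1.92, SE 0.36, limma adjusted p = 0.0239). Of 19 ATF4 targets 3 fell, beside the same 3.75%, with a median of -0.97. HSPA5, the HSP70 chaperone of the endoplasmic reticulum, had 30.6%, 24.2% and 31.5% at 15 min and 13.3%, 10.05% and 11.3% at 30 min (log2 difference -1.62, SE 0.39, limma adjusted p = 0.0428). Of 11 heat shock chaperones 4 fell, beside the same 3.75%, with a median of -0.93. HSPA8 had 10.6%, 14.5% and 13.9% at 15 min and 7.66%, 5.89% and 7.12% at 30 min (log2 difference -1.01, SE 0.21, limma adjusted p = 0.0347), and HSPH1, an HSP110 chaperone, had 35.6%, 26.9% and 32.1% at 15 min and 20.6%, 11.1% and 13.2% at 30 min (log2 difference -1.43, SE 0.30, limma adjusted p = 0.0347). No gene of the 3 lists rose.

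Translation factors and snoRNA hosts had 4 falls each, among 44 and 23, beside the 3.75% of all ratios that fell. Their medians were -0.61 and -0.63. EIF1AX, a scanning factor of initiation, had 71.8%, 62.1% and 68.9% at 15 min and 49.8%, 33.7% and 38.98% at 30 min (log2 difference -1.61, SE 0.34, limma adjusted p = 0.03402). SNHG1 had 59.8%, 59.3% and 64.1% at 15 min and 33.5%, 30.1% and 36.2% at 30 min (log2 difference -1.66, SE 0.31, limma adjusted p = 0.0237). NCL, the nucleolar protein nucleolin, started low and had 6.39%, 7.58% and 8.26% at 15 min and 4.89%, 3.704% and 3.93% at 30 min (log2 difference -0.88, SE 0.22, limma adjusted p = 0.04801). Of 39 core spliceosome proteins 4 fell and 1 rose, beside 3.75% and 0.246% of all ratios. DHX15, the helicase that takes apart the spent spliceosome, had 31.5%, 27.4% and 34.97% at 15 min and 11.7%, 13.3% and 14.9% at 30 min (log2 difference -1.57, SE 0.32, limma adjusted p = 0.0307), and SF3B1, the branch point binder, had 14.6%, 13.7% and 18.6% at 15 min and 8.38%, 6.799% and 7.98% at 30 min (log2 difference -1.14, SE 0.25, limma adjusted p = 0.03499). Of 395 ZNF genes 12 fell, a share near the 3.75% of all ratios, with a median of -0.74.

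Large falls outside the lists were found in NUAK1, FAM76B and JAG1, which had primary RNA in all 6 libraries. NUAK1 had 74.7%, 70.5% and 88.9% at 15 min and 38.6%, 28.7% and 44.2% at 30 min (log2 difference -2.68, SE 0.56, limma adjusted p = 0.0319), and FAM76B had 61.97%, 49.4% and 65.5% at 15 min and 22.02%, 18.8% and 20.2% at 30 min (log2 difference -2.49, SE 0.34, limma adjusted p = 0.00885). JAG1, a ligand of Notch, had 76.8%, 70.1% and 74.2% at 15 min and 32.6%, 33.7% and 40.6% at 30 min (log2 difference -2.33, SE 0.41, limma adjusted p = 0.0206). In each of the 3 the lowest share at 15 min lay above the highest at 30 min. The ratios of all 553 called genes likewise did not overlap between the times. PUF60, HOXB6 and WDR83OS were called higher from primary values listed at 0 in at least 2 libraries at 15 min, and TXNIP, an arrestin-like protein that responds to glucose, and SYNJ2BP were called lower from values listed at 0 in 2 libraries each at 30 min, so no fold is given for these 5 genes.

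**Figure D4:**
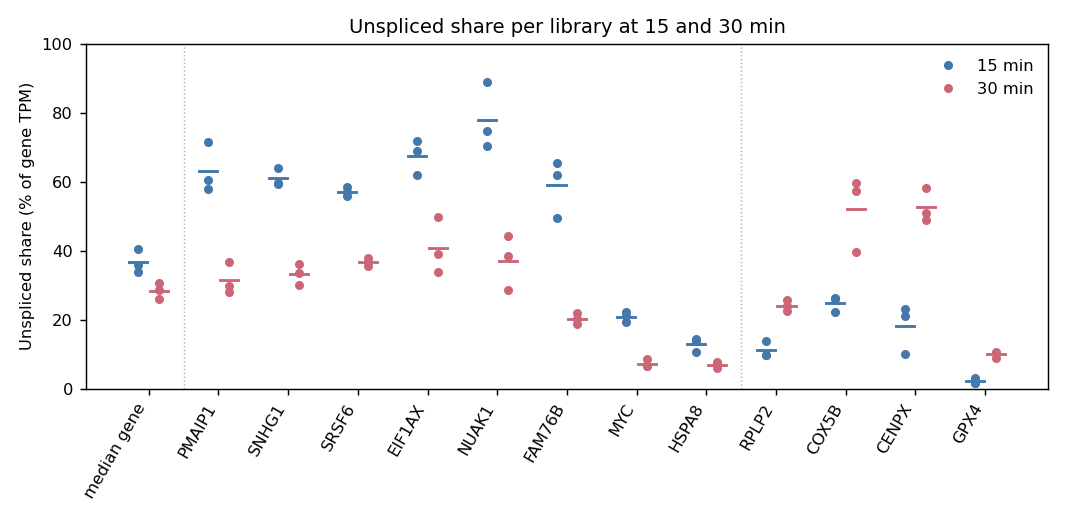
Unspliced share of labelled RNA (y axis, percent) in each of the 6 libraries for the median gene and 12 named genes (x axis), with short bars at the means of the 2 times. The share is lower at 30 min for the median gene and the 8 genes next to it (PMAIP1 to HSPA8) and higher for RPLP2, COX5B, CENPX and GPX4.

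Of the 34 ratios that rose, 9 belonged to ribosomal protein and OXPHOS genes, lists that held 70 and 73 of the 13826 ratios tested. Of the 70 ribosomal protein genes 5 rose and 0 fell, beside the 0.246% of all ratios that rose. Their median difference was 0.31 and the median share went from 14.6% to 18.5%. RPLP2, of the ribosomal stalk, had 9.89%, 9.72% and 13.7% at 15 min and 23.9%, 22.6% and 25.8% at 30 min (log2 difference 1.36, SE 0.24, limma adjusted p = 0.0206). Its mature RNA was 354, 363 and 304 TPM at 15 min and 183, 153 and 121 TPM at 30 min, and its primary RNA 38.8, 39.1 and 48.4 and 57.6, 44.5 and 42.1 TPM. Its primary RNA overlapped between the times.

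Of 73 nuclear-encoded OXPHOS genes 4 rose and 0 fell, beside the 0.246% of all ratios that rose, with a median of 0.45. ATP5MF, a subunit of ATP synthase, had 2.18%, 1.84% and 4.25% at 15 min and 10.05%, 9.19% and 12.2% at 30 min (log2 difference 2.12, SE 0.40, limma adjusted p = 0.02502). COX5B had 25.9%, 22.3% and 26.4% at 15 min and 59.7%, 39.6% and 57.3% at 30 min (log2 difference 1.72, SE 0.36, limma adjusted p = 0.0325). GPX4 had 3.102%, 1.67% and 1.62% at 15 min and 10.4%, 8.99% and 10.7% at 30 min (log2 difference 2.38, SE 0.40, limma adjusted p = 0.0185) and CENPX 10.1%, 21.2% and 23.2% at 15 min and 58.1%, 51.1% and 49.1% at 30 min (log2 difference 2.40, SE 0.44, limma adjusted p = 0.0237). MDK, the secreted growth factor midkine, had 3.17%, 4.68% and 10.02% at 15 min and 24.1%, 15.8% and 14.2% at 30 min (log2 difference 1.91, SE 0.44, limma adjusted p = 0.0402). GAPDH, at 11.5%, 9.22% and 11.4% at 15 min and 16.9%, 11.1% and 10.7% at 30 min, had overlapping shares and did not pass (log2 difference 0.28, SE 0.30, limma adjusted p = 0.581).

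The authors deposited a score of polysome against cytosol RNA for each gene, drawn from other libraries, and the ratio was ordered by it. From the lowest to the highest of 4 equal classes of the score the median log2 difference was -0.86, -0.68, -0.52 and -0.14, and the falls numbered 323, 104, 60 and 23 among 3085 or 3086 genes each. Of the 28 genes with a score whose ratio rose, 26 were in the highest class. The polysome score was not alone in this. All 28 were in the lowest class of the degradation score, and 25 in the highest class of the score of cytosol against nuclear RNA. Genes with falling ratios had a median locus of 45923 bp and 13 exons, those with rising ratios 4085 bp and 5 exons, and all tested genes 34886 bp and 9 exons.

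Excision of single introns gives another view of splicing from the same libraries. For 21782 introns of 4163 genes the authors deposited theta, the share of reads at the intron's splice sites that show it removed, as a mean over the replicates of each time, so these values carry no spread and no test. Median theta over the 5 labelling times, from the shortest to the longest, was 0.542, 0.579, 0.696, 0.806 and 0.844. From 15 to 30 min the median change was 0.102. Theta was higher at 30 min by at least 0.1 in 11037 introns (50.7%) and lower by at least 0.1 in 1040 (4.77%). Introns with theta of at least 50% went from 14554 (66.8%) to 18549 (85.2%).

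The change differed by an intron's distance from the ends of its gene and by its base composition. With introns split into 4 equal classes, it was at least 0.1 upward in 63.3% of those lowest in GC content and in 32.8% of the highest. It was so in 35.0% of the class nearest the start site and 61.1% of the farthest, and in 34.6% of the class nearest the poly(A) site and 59.5% of the farthest. The shares ran the same way from both ends, and both distances can be larger in a longer locus. Position was not separated from locus length, and neither was tested. By length, in 4 classes of unequal size from the shortest introns to the longest (10 kb or more), the shares were 40.4%, 47.9%, 53.9% and 52.6%. In 4 equal classes of the splice site scores the shares were alike, with 49.2% to 52.0% over the classes of the 5′ site and 48.4% to 52.4% over those of the 3′ site. Introns that host a miRNA had 27.4% and those that host a snoRNA 47.5%. Introns the authors classed as medium in speed had 64.7%, against 41.5% of fast and 37.0% of slow ones, a class drawn from these same values.

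Gene groups are read beside the 50.7% of all introns that were higher by at least 0.1 and the 4.77% that were lower. Of 119 introns in SR and CLK genes 91 were higher by at least 0.1 and 0 lower, and their median theta went from 0.396 to 0.581. Of 94 in heat shock chaperones 62 were higher and 1 lower, with a median from 0.601 to 0.756. Of 91 in snoRNA hosts 57 were higher and 1 lower, with a median from 0.277 to 0.395. Of 211 in mitotic genes 136 were higher and 3 lower. Of 238 in HNRNP genes 131 were higher, a share near that of all introns, and 1 lower. Of 305 introns in ribosomal protein genes 12 were higher and 58 lower, with a median of 0.756 at 7.5 min, 0.645 at 15 min and 0.629 at 30 min. Of 170 in OXPHOS genes 27 were higher and 41 lower, and of 195 in proteasome genes 50 and 36.

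**Figure D5:**
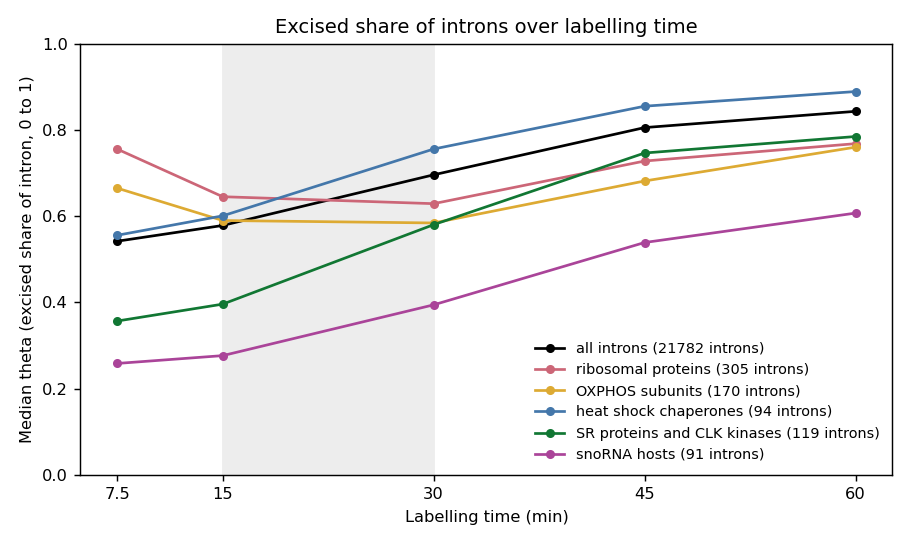
Median theta (y axis, fraction of splice site reads showing the intron removed, the authors' mean over replicates) against labelling time in minutes (x axis) for all introns and 5 gene lists, with the step from 15 to 30 min shaded. All introns go from 0.579 to 0.696 in the shaded step, and ribosomal protein introns from 0.645 to 0.629.

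The intron with the largest gain was in RBBP8, a DNA end resection factor, at chr18:20571013-20572710 (hg19, plus strand), from 0.294 to 0.813. Introns of DNM1L, the GTPase of mitochondrial fission (0.274 to 0.790), and of TPR, a protein of the nuclear pore basket (0.341 to 0.854), gained almost as much. In genes whose ratio fell, an intron of SF3B1 at chr2:198263306-198264778 on the minus strand went from 0.290 to 0.758. One of DHX15 went from 0.355 to 0.796. The intron with the largest loss was in PFDN5, a prefoldin subunit, at chr12:53690060-53691633 on the plus strand, from 0.654 to 0.272. Introns of DNAJC11, a mitochondrial co-chaperone (0.796 to 0.422), and of IMPDH2, the enzyme of guanine nucleotide synthesis (0.608 to 0.240), lost nearly as much. These introns were picked for their size of change.

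Within a gene, the listed theta changes of introns were not all alike. Theta carries no spread here, so how much of this is scatter of the measurement was not tested. In 1637 genes with at least 5 introns, all introns rose in 596 (36.4%) and none in 23, and the median range between the introns of a gene was 0.263. Across 4157 genes the ratio difference and the gene's median theta change had a Pearson correlation of -0.648 and a Spearman correlation of -0.621, with the libraries shared between them and genes that are not independent. In 3221 of them (77.5%) the ratio difference was below 0 and the theta change above 0. Introns of genes with a falling ratio were higher by at least 0.1 in 1720 of 2171, and introns of genes with a rising ratio were lower by at least 0.1 in 41 of 56. Of all introns, 50.7% were higher and 4.77% lower by that much. These genes were picked by the ratio in the same libraries that gave theta, so the counts are no separate evidence.

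The step from 15 to 30 min was set beside its neighbours, with which it shares libraries. In mature RNA 8 genes were higher and 1 lower from 7.5 to 15 min, and 0 were called from 30 to 45 min. In the ratio 0 and 1 were called at these steps. When the steps were tested against each other, the difference between this step and the one before was called in mature RNA for 1 gene (0.00597%) and in the ratio for 1 (0.00723%), and that between this step and the one after for 0 (0%) in both, with 649 mature and 671 ratio values at an unadjusted limma p under 0.05. In primary RNA 5 genes (0.0336%) and 1 gene (0.00671%) were called. The larger number of calls at this step thus came with almost no gene for which the steps themselves were called different. The share of introns with theta higher by at least 0.1 was 26.8%, 50.7%, 49.3% and 17.4% over the 4 steps.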

How the data were processed

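Mature and primary TPM were deposited by the authors, who ran RSEM 1.2.11 on GENCODE 19 with an added locus-spanning isoform for each gene (per the file headers). The submitters' processing notes name Bowtie 1.0.1 and hg19. Of 63568 entries, 25068 had no primary value. Theta, a fraction, is the authors' mean over replicates for introns with more than 5 junction reads in all replicates, per the file headers. Intron lengths and distances were deposited by the authors on a log10 scale, and polysome scores as centred log2 ratios.

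From these values log2(TPM + 1) was tested with limma 3.58.1 in R 4.3.3 on the 15 labelled libraries, contrast 30 min minus 15 min, for genes with a mean of at least 1 TPM over the 6 libraries and Benjamini-Hochberg adjusted p under 0.05. The ratio used log2 of primary over mature TPM with 0.1 added, with mature of at least 1 TPM and primary of at least 0.1 TPM. The code was tested on simulated data. Gene names and lengths come from GENCODE, matched for 91.0% of tested genes. Same-letter libraries correlated in primary RNA at 0.674, 0.127 and 0.667 for A, B and C (deviations from group means over 6653 genes). Replicate B at 30 min correlated better with replicate C at 15 min (0.235). The main fit of primary RNA had no block, and a fit with the replicate letter as a block is given beside it. Named genes were, per measure, the 10 largest called rises and falls without overlap at 10 TPM or more (or, with under 5 called, the 5 of smallest p), up to 3 called members of each list or its 2 most abundant, and MYC, JUN, GAPDH, ACTB, MALAT1, NEAT1 and E2F3. Not every gene that this rule names is reported here. The compared times and the gene lists were chosen with earlier results of these data known. Alternatives were other pseudocounts, filters and scalings, the 6 libraries alone, the replicate block and leaving out each library.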

Additional observations from a re-analysis of the deposited data

Results flagged for a closer look

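Differences between the step from 15 to 30 min and the neighbouring steps were called by limma at adjusted p under 0.05 for few entries. The steps share the 15 min or the 30 min libraries, so an unusual value at that time alone moves both.

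In mature RNA 1 entry without a symbol had a difference between this step and the one before (the latter from 7.5 to 15 min, the step after from 30 to 45 min) of -5.78 on the log2 scale. Its 15 min libraries held 2.84, 11.4 and 7.60 TPM, and those of the other 3 times named here were listed at 0.

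In primary RNA PUF60, a splicing factor, had a difference of 6.71. Its 7.5 min libraries held 10.4, 6.29 and 8 TPM, its 15 min libraries were listed at 0, and its 30 min libraries held 13.6, 9.39 and 9.09 TPM. AC239799.1 had -3.32 against the step before and 3.59 for the step after, with 17.2, 11.4 and 22.1 TPM at 7.5 min, 9.74, 11.3 and 17.9 TPM at 15 min, 0.19, 0 and 0 TPM at 30 min and 0 in all libraries at 45 min. RPSAP70, a processed pseudogene of a ribosomal protein gene, had -3.49 and was at 2.92, 4.18 and 1.00 TPM at 15 min, while its 3 libraries at 30 min were listed at 0. A further 2 primary entries without a symbol had -3.23 and -3.60.

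In the ratio 1 entry without a symbol had -4.00. Its unspliced share was 28.3%, 24.6% and 26.4% at 7.5 min, 55.3%, 53.8% and 58.2% at 15 min and 20.8%, 18.5% and 25.3% at 30 min. Groups of 3 libraries were too small to look for single libraries far from the others.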

How the results depend on the processing

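Calls of mature RNA higher and lower numbered 14 and 44 after median-ratio scaling, 52 and 62 after quantile normalization, 41 and 37 after rescaling TPM, 0 and 0 in the 6 libraries alone, 157 and 66 without replicate B at 45 min, and 2 to 67 and 0 to 22 leaving out 1 library. For primary RNA they were 0 and 2 with a pseudocount of 0.1, 4 and 13 with 5, 3 and 4 with a filter at 5 TPM, 7 and 8, 23 and 19, and 6 and 5 with the 3 scalings, 4 and 5 in the 6 libraries alone, 2 and 6 without a filter, and 1 to 3 and 1 to 9 leaving out 1 library. For the ratio they were 59 and 1095 with a pseudocount of 1, 50 and 994 with stricter filters, 1 and 1 in the 6 libraries alone, and 0 to 16 and 1 to 240 leaving out 1 library. The replicate block gave 579 and 146 for mature, 86 and 2292 for primary and 79 and 1874 for ratio calls, and in the 6 libraries alone 0 and 0 for mature and 220 and 4849 for primary. In mature RNA and the ratio, same-letter libraries correlated at 0.476, 0.025 and 0.410 and at 0.320, 0.0733 and 0.229. For these 2 measures the fit with the block is given in this section alone. In mature RNA replicate B at 15 min correlated best with replicate C at 30 min (0.246). Median-ratio scaling reversed the sign of the median of all genes, to -0.013 in mature and 0.017 in primary RNA. JUN in mature RNA turned to -0.19 and -0.063 with median-ratio and rescaled TPM, and ranged from -0.18 to 0.23 leaving out 1 library (-0.037, -0.18 and -0.011 without replicate C at 15 min and A or B at 30 min). The cause of these differences was not tested. The median theta change was 0.0893 with 1 value per gene, and 9.91% of introns were lower by at least 0.05. Of the checks on single genes, 1084 kept direction and side of the threshold, 583 lost the call and 34 gained it. TPM hold no depth, so precision comes from 3 libraries a time.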

Other observations

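Genes by type gave values that the comparisons above do not use. In mature RNA, 81 of 12334 protein-coding genes rose and 29 fell, 6 of 1674 long non-coding genes rose and 1 fell, and 1 of 1114 pseudogenes rose and 4 fell, by limma at adjusted p under 0.05. The median log2 difference was 0.20, 0.04 and -0.03 in these classes. In the ratio 496 of 11824 protein-coding and 4 of 820 long non-coding genes fell, with medians of -0.59 and -0.27. By exon number, 314 of 5626 genes with 11 or more exons had a falling ratio and 1 a rising one, and 44 and 12 of 2386 genes with 2 to 4 exons did. Of all ratios tested 3.75% fell and 0.246% rose, and of the protein-coding ones 4.19% fell.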
